A study of Mus musculus with 6 samples.

Results

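The 10 genes described here are the matrix metalloproteinases Mmp2, Mmp3, Mmp8, Mmp9, Mmp10, Mmp12, Mmp13, Mmp14, Mmp19 and Mmp23. They were chosen with earlier results of these data known, and were taken by symbol from a table of 55401 mouse genes. That table held 23 genes with an MMP symbol. The mRNA of the 10 genes was measured in cultured hepatic stellate cells of C57BL/6J mice. One group of 3 libraries came from mice heterozygous for S100a16 (S100a16+/-; the libraries also carry a knockdown name) and the other group of 3 from wild-type mice (WT). Both groups were grown for 7 days in medium with fetal bovine serum, so that the cells would become fully activated. The labels give no age, sex or culture purity, and do not say whether each library is a separate animal, so p-values measure the spread between these libraries, which may be technical. All 10 genes passed the filter, which asked for 3 or more of the 6 libraries with an FPKM (counts scaled to transcript length and library size) of 1 or higher and left 12766 genes for testing.

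Matrix metalloproteinases are zinc enzymes that cut collagens, elastin, fibronectin, laminins and many non-matrix proteins outside the cell. Most are made as inactive proenzymes that other proteases activate, and the tissue inhibitors of metalloproteinases (TIMPs) block them. In the liver, stellate cells and macrophages are known sources, and the balance of these enzymes and their inhibitors bears on how scar matrix is laid down and removed.

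S100a16 itself stood at 18.05, 17.71 and 30.03 FPKM in S100a16+/- replicates 1 to 3 and at 56.75 to 58.80 in WT, and it fell (log2 change -1.35, SE 0.21, adjusted p by edgeR = 0.0313). The call held without S100a16+/- replicate 3 (-1.63) and was lost without any other library (adjusted p by edgeR up to 0.143) and with no filter on low values (0.0516). Library totals ran from 61979103 to 76291481 counts. S100a16+/- replicate 3 stood apart: across tested genes its log2(FPKM + 1) correlated with replicates 1 and 2 at 0.930 and 0.929, against 0.987 between those replicates and 0.981 to 0.985 among WT libraries. Its Xist level was 32.23 FPKM and its Ddx3y level 0.0102, where the other 5 libraries had at most 0.0323 and at least 12.09, which is the pattern of female cells in that library and of male cells in the others. The myofibroblast actin gene Acta2 was at 47.98 FPKM in it and at 388 to 489 in the other libraries. The members' results below are therefore given with and without that library, and those of other genes where stated. The fit without S100a16+/- replicate 3 compares 2 S100a16+/- libraries with 3 of WT.

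Several metalloproteinase mRNAs were more abundant in the S100a16+/- libraries, and none passed the test in the other direction. Over all 6 libraries 3 of 10 rose, Mmp9, Mmp10 and Mmp14, where 2.85% of all tested genes rose and 4.46% changed in either direction (edgeR quasi-likelihood, Benjamini-Hochberg adjusted p under 0.05). Of the other 13 MMP genes, which are not members, 4 were tested and 0 were called. Without S100a16+/- replicate 3, 0 of those 4 were higher and 1 was lower. No member fell at that threshold, none had an unadjusted p under 0.05 on the lower side, and DESeq2 also called 0 lower; 1.61% of all tested genes fell. DESeq2 called 7 members higher, with 8.81% of tested genes higher and 5.98% lower. With no filter on low values edgeR called 2 members, Mmp10 and Mmp14, against 0.572% of genes higher and 0.858% in either direction. The groups did not overlap for 5 members, all higher in S100a16+/-, which was so for 12.5% of tested genes; 18.9% did not overlap with S100a16+/- lower, and 31.4% in either direction. The median log2 change was 0.91 over the members and 0.00 over all tested genes. Without S100a16+/- replicate 3, 8 members were higher and 0 lower (also 0 lower at an unadjusted p under 0.05), against 15.8% and 16.4% of all tested genes (32.2% in either direction), and the members' median was 1.05. Only Mmp2 and Mmp23 were not called in that fit. Without S100a16+/- replicate 1 the call of Mmp10 alone was kept, where 0.446% of tested genes were called higher. Without S100a16+/- replicate 2 or WT replicate 1, 2 or 3 edgeR called 0 members, where 0.329%, 0.243%, 0.196% and 0.172% of tested genes were called higher. At an unadjusted p under 0.05, 6 members were higher without S100a16+/- replicate 1 and 5 in each of the other 4 fits, beside 9.61%, 9.05%, 8.89%, 8.62% and 8.64% of tested genes. With the replicate number as a block 0 members and 0% of tested genes were called, and 6 members and 9.66% of tested genes were higher at an unadjusted p under 0.05. In both S100a16+/- replicates 1 and 2, 8 of 10 members were above every WT library, as were 23.5% of tested genes. Replicate 3 lay below those replicates for 9 members, all but Mmp14, and for 41.7% of tested genes.

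**Figure D1:**
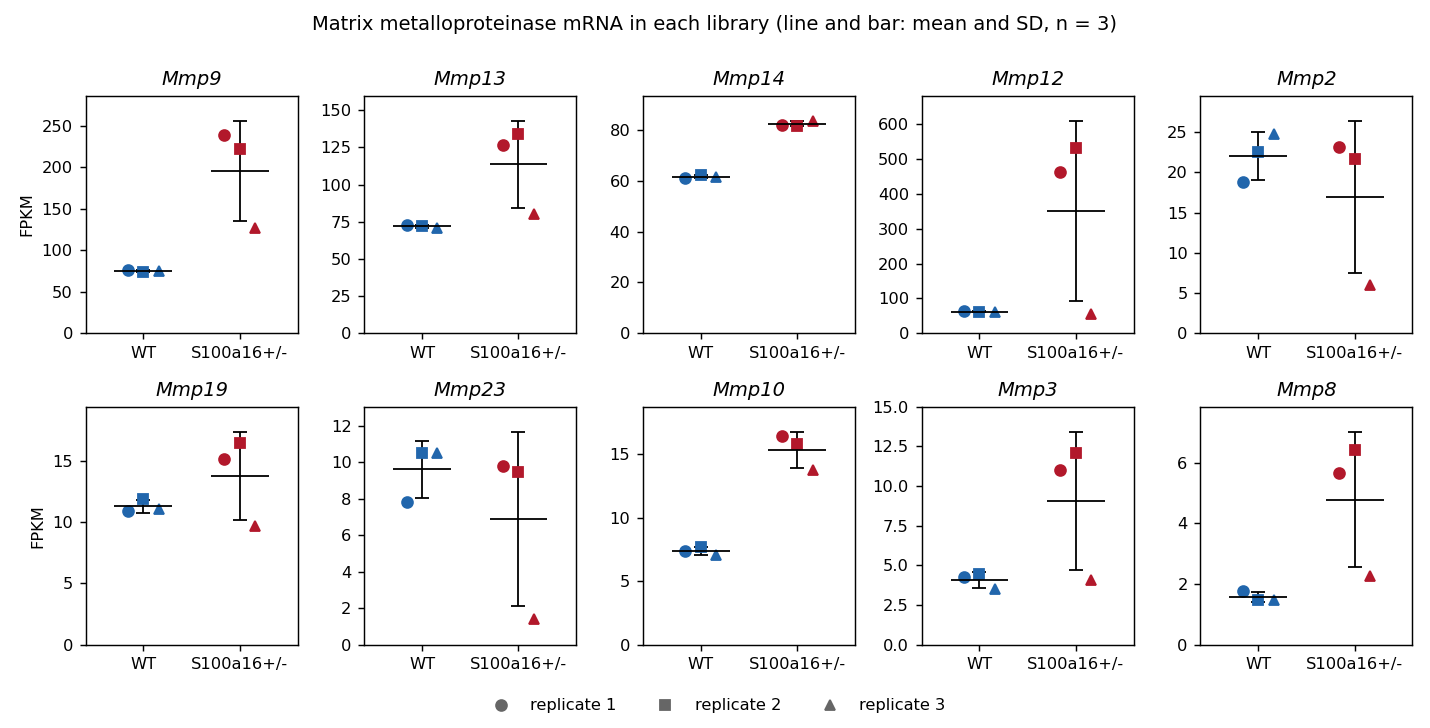
FPKM (linear axis from 0) of each metalloproteinase gene in the 3 WT (blue) and 3 S100a16+/- (red) libraries, 1 panel per gene in order of WT level; marker shapes are replicates 1 to 3, horizontal lines the means and bars the SD. WT libraries lie close together, and S100a16+/- replicate 3 (triangle) lies near or below WT for Mmp13, Mmp12, Mmp3, Mmp19, Mmp2 and Mmp23.

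Summed over the 10 genes, the FPKM was 993 and 1053 in S100a16+/- replicates 1 and 2, 383 in replicate 3, and 324 to 330 in WT. As shares of all counts, the members took 0.582%, 0.633% and 0.183% of the S100a16+/- libraries and 0.158% to 0.161% of the WT libraries. Mmp12 alone made up 46.8% and 50.7% of the summed FPKM in S100a16+/- replicates 1 and 2, 14.3% in replicate 3 and 18.4% to 19.4% in WT. That share depends on the gene length used for FPKM, which is not given here. In bulk RNA such as this, a larger share of the cells that make a transcript and more transcript per cell cannot be told apart.

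The sequences around the transcription starts are shown for the 5 members that lie in a gene cluster on chromosome 9. Many metalloproteinase promoters are known to hold a site for AP-1, the Fos and Jun transcription factor. RefSeq windows from 250 bases before to 50 after the start (GRCm38.p6) were matched for 7 of 10 members, 9 windows in all. Mmp2, Mmp9 and Mmp19 had none. The AP-1 motif TGAGTCA, or its reverse complement TGACTCA, was in a window of 4 of these 7, Mmp3, Mmp10, Mmp12 and Mmp13, and in 5.2% of all 32851 windows. The same 4 had the TATA motif TATAAA on the gene strand, found in 8.32% of all windows, and it did not overlap the AP-1 motif. Both motifs are in capitals in the 140 bases below, from 120 before to 20 after each start, all on the plus strand.
Mmp13, chr9:7272394-7272533: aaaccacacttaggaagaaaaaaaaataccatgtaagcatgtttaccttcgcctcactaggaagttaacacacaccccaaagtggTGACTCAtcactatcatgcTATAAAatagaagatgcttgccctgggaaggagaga
Mmp12, downstream start, chr9:7347254-7347393: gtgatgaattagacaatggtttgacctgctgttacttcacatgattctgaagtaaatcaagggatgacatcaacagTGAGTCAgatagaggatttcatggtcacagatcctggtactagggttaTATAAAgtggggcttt
Mmp3, chr9:7445702-7445841: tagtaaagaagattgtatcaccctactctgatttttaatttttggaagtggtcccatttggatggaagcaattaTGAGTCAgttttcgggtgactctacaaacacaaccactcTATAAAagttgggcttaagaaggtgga
Mmp10, chr9:7502222-7502361: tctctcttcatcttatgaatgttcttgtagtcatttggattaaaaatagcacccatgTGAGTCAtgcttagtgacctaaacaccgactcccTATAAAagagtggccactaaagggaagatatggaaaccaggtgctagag
Mmp8, chr9:7558309-7558448: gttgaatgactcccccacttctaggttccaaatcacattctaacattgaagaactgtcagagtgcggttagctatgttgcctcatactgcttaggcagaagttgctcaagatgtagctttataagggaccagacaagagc
Mmp27, chr9:7571276-7571415: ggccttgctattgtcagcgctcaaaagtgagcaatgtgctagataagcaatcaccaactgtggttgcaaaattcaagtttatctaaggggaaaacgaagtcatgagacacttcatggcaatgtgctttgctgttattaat

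Counting back from the base before each start as -1, the first base of the AP-1 motif is at -35 in Mmp13, -44 in Mmp12, -46 in Mmp3 and -63 in Mmp10. That of TATAAA is at -29 in Mmp10, -16 in Mmp13 and -7 in Mmp3. In Mmp12 it is at base 5, after the start. Mmp12 has 2 annotated starts, and the motif is in the window of the downstream one only. No AP-1 or TATAAA match was in the windows of Mmp8, Mmp14 or Mmp23, nor in that of Mmp27, which is shown as a neighbouring gene that was not called. Mmp8, without a match, had a log2 change of 1.66, and the 4 members with a match had 0.71 to 2.57. A match in these letters is not evidence that a factor binds there.

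The gelatinases Mmp9 and Mmp2, which cut denatured collagen and basement membrane collagen IV, behaved differently. Mmp9 (ENSMUSG00000017737, chromosome 2, 164940780 to 164955850, plus strand), a gelatinase made by macrophages and other leukocytes, had FPKM values of 238.4, 221.6 and 126.6 in S100a16+/- replicates 1 to 3. In WT it had 75.99, 74.28 and 74.55. Every S100a16+/- library was above every WT library, and replicate 3 was the lowest of its group. The means were 195.5 ± 60.3 and 74.9 ± 0.921 FPKM (SD, n = 3 each), a ratio of 2.61. Mmp9 rose by a log2 change of 1.44 (SE 0.25, adjusted p by edgeR = 0.0400). It was at 1.68 without S100a16+/- replicate 3 (adjusted p by edgeR = 4.121e-05), and its call was lost when any of the other 5 libraries was left out (adjusted p by edgeR = 0.118 to 0.184) or no filter was used (0.0650).

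Mmp2 (ENSMUSG00000031740, chromosome 8, 92827291 to 92853420, plus strand), the gelatinase of mesenchymal cells, had 23.09, 21.62 and 6.046 FPKM in the S100a16+/- libraries and 18.83, 22.50 and 24.80 in WT. S100a16+/- replicates 1 and 2 lay within the WT range and replicate 3 at 27.4% of the WT mean. The means were 16.9 ± 9.44 and 22.0 ± 3.02 FPKM (SD, n = 3 each), with a log2 change of -0.32 (SE 0.49; adjusted p by edgeR = 0.751). Without S100a16+/- replicate 3 it was 0.08 (SE 0.12, adjusted p by edgeR = 0.633).

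Mmp13 and Mmp8 are collagenases, which open the intact triple helix of fibrillar collagen. Mmp13 (ENSMUSG00000050578, chromosome 9, 7272514 to 7283331, plus strand), the main interstitial collagenase of rodents, was at 126.8, 133.9 and 80.37 FPKM in the S100a16+/- libraries and at 72.90, 72.41 and 70.99 in WT. The groups did not overlap, although S100a16+/- replicate 3 was at 111.5% of the WT mean, close to WT. Over 6 libraries the log2 change was 0.71 (SE 0.20; adjusted p by edgeR = 0.119), and it was 0.92 (SE 0.04, adjusted p by edgeR = 0.000128) without S100a16+/- replicate 3. Mmp8 (ENSMUSG00000005800, chromosome 9, 7558456 to 7568485, plus strand), known as neutrophil collagenase, had the lowest group means of the members, although in S100a16+/- replicate 3 Mmp23 was lower. Its FPKM was 5.651, 6.428 and 2.251 in S100a16+/- and 1.771, 1.455 and 1.482 in WT, from 291 to 1212 counts per library. Here too each S100a16+/- value exceeded each WT value. The log2 change was 1.66 (SE 0.41, adjusted p by edgeR = 0.0837) over 6 libraries and 2.00 (SE 0.14, adjusted p by edgeR = 0.000356) without S100a16+/- replicate 3.

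The stromelysins Mmp3 and Mmp10 cut a broad range of matrix proteins and activate other proenzymes of the family. Mmp10 (ENSMUSG00000047562, chromosome 9, 7502352 to 7510240, plus strand) had 16.42, 15.81 and 13.73 FPKM in the S100a16+/- libraries against 7.362, 7.701 and 7.070 in WT. All 3 S100a16+/- libraries stood above WT, with 223%, 214% and 186% of its mean. The means were 15.3 ± 1.41 and 7.38 ± 0.316 FPKM (SD, n = 3 each). Mmp10 rose by a log2 change of 1.11 (SE 0.11, adjusted p by edgeR = 0.0103), and by 1.19 without S100a16+/- replicate 3 (adjusted p by edgeR = 0.000240). Its call held without S100a16+/- replicate 1 (adjusted p by edgeR = 0.0497) and was lost without S100a16+/- replicate 2 or any WT replicate (adjusted p by edgeR = 0.0576 to 0.0797).

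Mmp3 (ENSMUSG00000043613, chromosome 9, 7445822 to 7455975, plus strand) had 11.02, 12.06 and 4.074 FPKM in S100a16+/- and 4.282, 4.473 and 3.520 in WT. S100a16+/- replicates 1 and 2 reached 269% and 295% of the WT mean, whereas replicate 3 had 99.6%, inside the WT range. The log2 change of 1.20 (SE 0.42, adjusted p by edgeR = 0.170) became 1.56 (SE 0.13, adjusted p by edgeR = 0.000704) without S100a16+/- replicate 3. The transcripts of Mmp3 and Mmp10 share 65 stretches of 75 bases, 3.76% of those in Mmp3 and 3.94% of those in Mmp10, so a few reads could have been counted for either gene. Among the other members 1 such stretch, in Mmp12, occurred in a transcript of another gene.

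Mmp12 (ENSMUSG00000049723, chromosome 9, 7344381 to 7369499, plus strand), the elastin-cutting metalloelastase of macrophages, had the widest range. Its FPKM was 464.5, 533.7 and 54.82 in S100a16+/- replicates 1 to 3 and 62.70, 62.23 and 59.78 in WT. Replicates 1 and 2 were at 7.54 and 8.67 times the WT mean, while replicate 3 was at 0.890 times it, below all WT libraries. The groups therefore overlapped, with means of 351 ± 259 and 61.6 ± 1.57 FPKM (SD, n = 3 each). Over 6 libraries the log2 change was 2.57 (SE 0.79; not called, adjusted p by edgeR = 0.137), and it was 3.08 (SE 0.07, adjusted p by edgeR = 4.121e-05) without S100a16+/- replicate 3. Mmp12 overlaps Mmp1b on the opposite strand by 1261 bases, but Mmp1b had at most 23 counts in any library, against 27204 to 300227 for Mmp12.

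Mmp14 and Mmp23 are made as membrane-bound proteins. Mmp14 (ENSMUSG00000000957, chromosome 14, 54431612 to 54441265, plus strand), a membrane-type collagenase that also activates the Mmp2 proenzyme together with TIMP2, had the most even values of all members. They were 82.07, 81.61 and 83.51 FPKM in S100a16+/- and 61.04, 62.45 and 61.49 in WT, so that S100a16+/- replicate 3 matched its group. The means were 82.4 ± 0.993 and 61.7 ± 0.722 FPKM (SD, n = 3 each), a ratio of 1.34. Mmp14 rose by a log2 change of 0.47 (SE 0.06, adjusted p by edgeR = 0.0199). The value was 0.46 to 0.47 whichever library was left out, with the call kept without S100a16+/- replicate 3 (adjusted p by edgeR = 0.000341) and lost without each of the other 5 (adjusted p by edgeR = 0.0825 to 0.133). Mmp23 (ENSMUSG00000029061, chromosome 4, 155650655 to 155653384, minus strand), a member that lacks the hemopexin domain, had 9.813, 9.466 and 1.397 FPKM in S100a16+/- and 7.817, 10.53 and 10.50 in WT. Only S100a16+/- replicate 3 differed, at 14.5% of the WT mean. Its log2 change was -0.42 (SE 0.67, adjusted p by edgeR = 0.765) and 0.07 (SE 0.14, adjusted p by edgeR = 0.761) without that library.

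Mmp19 (ENSMUSG00000025355, chromosome 10, 128790910 to 128800824, plus strand), a secreted enzyme that cuts basement membrane proteins, had 15.19, 16.50 and 9.750 FPKM in S100a16+/- and 10.91, 11.95 and 11.13 in WT. S100a16+/- replicates 1 and 2 were above WT and replicate 3 below it. The log2 change was 0.34 (SE 0.21, adjusted p by edgeR = 0.404), and 0.55 (SE 0.07, adjusted p by edgeR = 0.00300) without that library. Tmem198b overlaps Mmp19 by 789 bases on the opposite strand and had 42% as many counts, and the sources used here do not state whether the counting used strand, so the Mmp19 counts are uncertain.

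**Figure D2:**
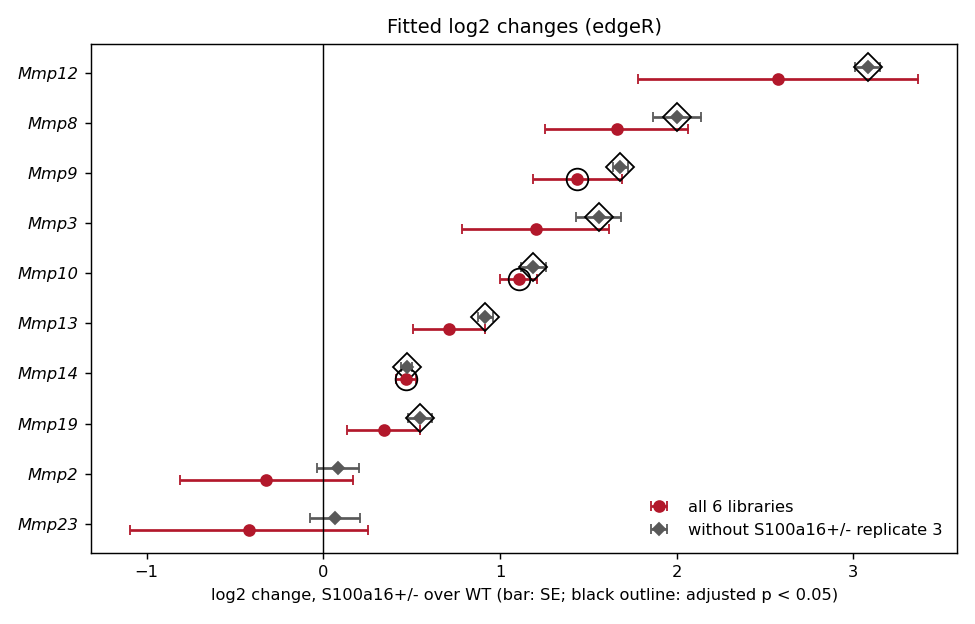
Fitted log2 change of each member, S100a16+/- over WT (horizontal axis), with SE bars, over all 6 libraries (red circles) and without S100a16+/- replicate 3 (grey diamonds); black outlines mark an adjusted p under 0.05. With that library left out, 8 members have outlined points in place of 3, and Mmp2 and Mmp23 move to 0.08 and 0.07.

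FPKM is scaled to length, but the gene length used for it is not given here. Mmp12 and Mmp14 have 7 annotated transcripts each and Mmp13 has 1, so levels compare only roughly between genes. In WT the order was Mmp9 (74.9 ± 0.921 FPKM), Mmp13 (72.1 ± 0.991), Mmp14 (61.7 ± 0.722), Mmp12 (61.6 ± 1.57), Mmp2 (22.0 ± 3.02), Mmp19 (11.3 ± 0.548), Mmp23 (9.61 ± 1.56), Mmp10 (7.38 ± 0.316), Mmp3 (4.09 ± 0.504) and Mmp8 (1.57 ± 0.175; SD, n = 3 throughout). Neighbours in that order had separate ranges of libraries, except Mmp14 and Mmp12. In S100a16+/- Mmp12 came first by its mean, but the ranges of all neighbours in that order overlapped apart from Mmp14 and Mmp2.

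Of the 10 members, 5 lie in the metalloproteinase gene cluster of chromosome 9, where the table has 10 MMP genes over 427.1 kb (7272514 to 7699585). They are, in genome order, Mmp13, Mmp12, Mmp3, Mmp10 and Mmp8. All 5 were above every WT library in S100a16+/- replicates 1 and 2. Mmp27, which starts just beyond Mmp8, had FPKM values of 7.046, 7.805 and 9.214 in S100a16+/- and 7.348 to 8.142 in WT, with a log2 change of 0.08 (SE 0.12, adjusted p by edgeR = 0.731). The cluster genes Mmp1a, Mmp7 and Mmp20 had 0 counts in every library, and Mmp1b had 43 in all libraries together. A count of 0 says only that no transcript was detected at this depth.

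**Figure D3:**
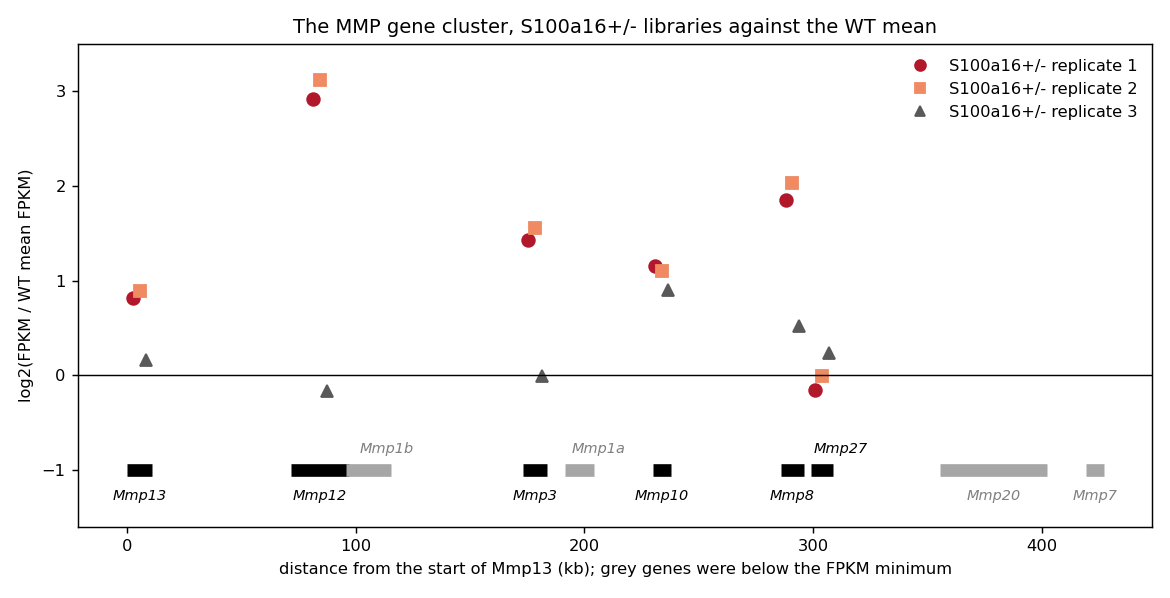
The metalloproteinase cluster drawn to scale, as distance in kb from the start of Mmp13, with log2 of FPKM over the WT mean FPKM for the 3 S100a16+/- libraries above each tested gene; bars are gene spans, black where tested and grey where below the FPKM minimum. Replicates 1 and 2 lie above 0 for the 5 members and at or just below 0 for Mmp27, and replicate 3 is near 0 for Mmp13, Mmp12 and Mmp3.

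Genes that act with the metalloproteinases were read from the same fit. The counts called in each list stand beside 2.85% of all tested genes higher and 1.61% lower by edgeR. Without S100a16+/- replicate 3 those shares were 15.8% and 16.4%, and by DESeq2 over 6 libraries 8.81% and 5.98%. Every call over all 6 libraries named below from these lists held without S100a16+/- replicate 3. Each was lost without any 1 of the other 5, but Il1a was called in 3 of the 6 fits with a library left out. With no filter on low values the calls of Col5a1, Spp1, Adam8, Ctsd and Ctsz were lost (adjusted p by edgeR = 0.0625, 0.0665, 0.0735, 0.0512 and 0.0828), and those of Spp1, Adam8 and Ctsz were also lost with limma. Signals known to induce metalloproteinases came first. Of 15 tested cytokine, AP-1, ETS and related genes 3 rose and 0 fell (1 had an unadjusted p under 0.05 on the lower side, and DESeq2 called 1 lower), with a median log2 change of 0.19. Without S100a16+/- replicate 3, 6 were higher and 4 lower, with a median of -0.03. The genes that rose were the cytokine genes Il1a, Il1b and Tnf, at log2 changes of 0.97, 0.84 and 1.92 (adjusted p by edgeR = 0.00865, 0.0265 and 0.0288). The AP-1 gene Fos had 13.19, 13.03 and 7.757 FPKM in S100a16+/- and 4.939 to 6.317 in WT, without passing (log2 change 1.08, adjusted p by edgeR = 0.0679), and Jun had a log2 change of 0.07 (adjusted p by edgeR = 0.848). Fos and Jun were named after their values were seen.

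None of the 6 tested inhibitors passed over all 6 libraries by edgeR, with 1 lower and 0 higher at an unadjusted p under 0.05 and the same by DESeq2. Their median log2 change was -0.07, or, leaving out S100a16+/- replicate 3, 0.12, with 2 higher and 2 lower. The summed FPKM of the 7 inhibitor genes was 346, 339 and 116 in S100a16+/- replicates 1 to 3 and 280 to 322 in WT. The general inhibitor A2m had 4.747, 4.043 and 7.067 FPKM against 8.319 to 10.58 in WT (log2 change -0.81, adjusted p by edgeR = 0.101). Without S100a16+/- replicate 3 A2m was lower (-1.06, adjusted p by edgeR = 0.00271). Reck, a membrane-anchored inhibitor, had a log2 change of 0.20 (adjusted p by edgeR = 0.526). Of 9 tested genes of proenzyme activation (convertases and the plasmin system) 0 passed in either direction, with 3 higher and 1 lower at an unadjusted p under 0.05 and 1 and 1 by DESeq2. The median was 0.15, or, leaving out S100a16+/- replicate 3, 0.24, with 5 higher and 1 lower. Among them the plasminogen activator gene Plat had 3.550, 2.880 and 8.223 FPKM in S100a16+/- and 10.75 to 11.69 in WT (log2 change -1.17, adjusted p by edgeR = 0.160). Plat was lower without S100a16+/- replicate 3 (-1.76, adjusted p by edgeR = 0.000243).

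Genes of the matrix proteins that these enzymes cut had mostly negative log2 changes. Of 20 tested substrates 3 fell and 1 rose, 2 had a log2 change above 0, and the median was -0.52. The elastin gene Eln fell by 4.10 on the log2 scale, the proteoglycan gene Bgn by 0.67 and the collagen gene Col5a1 by 0.53 (adjusted p by edgeR = 0.0132, 0.0195 and 0.0339). Eln was a low transcript, at 0.0925, 0.0933 and 0.0331 FPKM in S100a16+/- and 1.118 to 1.658 in WT. It passed the filter through the WT libraries alone. The osteopontin gene Spp1 rose by 2.41 (adjusted p by edgeR = 0.0412). Without S100a16+/- replicate 3, 13 were lower and 1 higher, with a median of -0.45. Substrate mRNA is not a measure of substrate cleavage, which was not measured.

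Other proteases gave a mixed picture. Of 14 tested ADAM and ADAMTS genes 1 rose, the leukocyte sheddase gene Adam8 (log2 change 1.93, adjusted p by edgeR = 0.0450), and 0 fell (1 at an unadjusted p under 0.05, 0 by DESeq2). The median was -0.22, or, leaving out S100a16+/- replicate 3, -0.06. In that fit 3 were higher and 5 lower, beside 15.8% and 16.4% of all tested genes. Of 8 cathepsin and legumain genes of macrophage matrix breakdown 3 rose and 0 fell (0 at an unadjusted p under 0.05, 0 by DESeq2). Their median was 0.51, or, leaving out S100a16+/- replicate 3, 0.57, with 6 higher and 0 lower. The cathepsin genes Ctsd, Ctsz and Ctsb rose by 1.04, 0.77 and 0.58 (adjusted p by edgeR = 0.0376, 0.0490 and 0.0402). Of the other 13 MMP genes, 4 were tested and 0 passed in either direction (0 at an unadjusted p under 0.05, 0 by DESeq2). Besides Mmp27 these were Mmp11, Mmp17 and Mmp28, with mean FPKM of at most 1.48 in either group. Mmp28 was at 0.388 and 0.427 FPKM in S100a16+/- replicates 1 and 2, 1.762 in replicate 3 and 1.357 to 1.399 in WT, and was lower without replicate 3 (log2 change -1.69, adjusted p by edgeR = 0.000745).

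Markers of several cell types also differed between the libraries. Of the 15 stellate markers, Lrat, Gfap, Reln and Rgs5 were at most at 0.531 FPKM in every library and Colec11 at most at 0.803. Hand2, a stellate cell transcription factor gene, had 5.392, 5.074 and 1.379 FPKM in S100a16+/- and 4.117 to 5.367 in WT. The muscle-type filament gene Des had 42.93, 43.79 and 2.776 FPKM against 13.03 to 16.92 in WT, without passing (log2 change 1.09, adjusted p by edgeR = 0.542). Des was higher without S100a16+/- replicate 3 (1.63, adjusted p by edgeR = 0.000389). The activated-cell gene Acta2 was abundant except in S100a16+/- replicate 3. The summed level of the 15 stellate markers was 1.06, 1.03 and 0.292 times the WT mean in S100a16+/- replicates 1 to 3, with 0 of 10 tested called in either direction (0 at an unadjusted p under 0.05, 0 by DESeq2; without replicate 3, 3 were higher and 1 lower). Mmp2 and Mmp23 were low in that same replicate 3. What part stellate cells had in this was not tested.

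Macrophage transcripts were more abundant than stellate ones. The lysozyme gene Lyz2 had 9230, 10060 and 5460 FPKM in S100a16+/- and 4377 to 4595 in WT. The 15 macrophage markers summed to 1.59, 1.70 and 1.24 times the WT mean in S100a16+/- replicates 1 to 3, and 0.975 to 1.03 times in WT. In S100a16+/- replicate 1 Lyz2 gave 9230 and Marco 2829 of the summed 17050 FPKM. The median log2 change of the 15 was 0.10, or, leaving out S100a16+/- replicate 3, 0.08. Of these markers 4 rose and 0 fell (0 at an unadjusted p under 0.05, 0 by DESeq2), including the scavenger receptor gene Marco (log2 change 1.17, adjusted p by edgeR = 0.0376), (7 higher and 5 lower without S100a16+/- replicate 3), while Csf1r and Vsig4 had log2 changes of 0.09 and 0.02 (adjusted p by edgeR = 0.560 and 0.922; both named after their values were seen). The integrin gene Itgax, listed here as a dendritic cell marker and also made by macrophages, had 59.24, 60.69 and 6.820 FPKM in S100a16+/- and 8.171 to 9.720 in WT. Like Mmp12 it was high in replicates 1 and 2 and at or below WT in replicate 3 (log2 change 2.33, adjusted p by edgeR = 0.160). Itgax was higher without S100a16+/- replicate 3 (2.84, adjusted p by edgeR = 4.258e-05). Of the other 7 dendritic cell markers, Clec9a had 1.931, 2.187 and 3.064 FPKM in S100a16+/- and 1.563 to 1.881 in WT (log2 change 0.53, adjusted p by edgeR = 0.194). Zbtb46 had 2.045, 1.661 and 2.512 FPKM against 2.158 to 2.243 (log2 change -0.05, adjusted p by edgeR = 0.889). Flt3, Xcr1, Ccr7 and Siglech were at most at 0.0943 FPKM and Cd209a had 0 counts. The part of macrophages or dendritic cells in the metalloproteinase levels was not tested.

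Neutrophils are a known source of Mmp8 and Mmp9. Of the 14 neutrophil markers, Ly6g, Ngp, Retnlg, S100a9 and Ctsg had 0 counts in all 6 libraries, and Elane and Mpo at most 0.0338 FPKM. The neutrophil list summed to 1.54, 1.71 and 2.21 times the WT mean in S100a16+/- replicates 1 to 3, with most of it from Csf3r, S100a8 and Lcn2. Of its 3 tested genes S100a8 rose (log2 change 3.28, adjusted p by edgeR = 0.0386). S100a8 had 12.37, 14.97 and 6.585 FPKM in S100a16+/- and 0.5725 to 2.005 in WT, from 33 to 119 counts. It passed the filter through the S100a16+/- libraries. The calls of S100a8 and Marco held without S100a16+/- replicate 3 and were lost without any other library and with no filter on low values (adjusted p by edgeR = 0.0643 and 0.0561). Endothelial markers summed to 0.489, 0.467 and 1.19 times the WT mean, and hepatocyte markers to 0.567, 0.557 and 2.78 times. Trf gave 139.6 of the 150.6 hepatocyte FPKM in S100a16+/- replicate 1, at 0.853 times its WT mean. The endothelial genes Vwf and Clec4g, at low levels, stood there at 4.37 and 3.84 times theirs. Median log2 CPM ratios to the WT mean over tested genes were -2.93, -3.26 and 2.39 for hepatocyte and -0.98, -1.02 and 0.24 for endothelial markers. Of 10 tested in each of these lists 0 were called by edgeR over 6 libraries; at an unadjusted p under 0.05, 2 endothelial and 0 hepatocyte genes were lower, by DESeq2 1 and 0, and without S100a16+/- replicate 3, 9 and 9. Mesothelial and portal fibroblast markers summed to 0.952, 0.927 and 0.316 times the WT mean. Cholangiocyte markers and T, NK and B cell markers were at 0.757 to 0.993 and 0.286 to 0.828 times it. The part of these cells in the results was not tested.

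**Figure D4:**
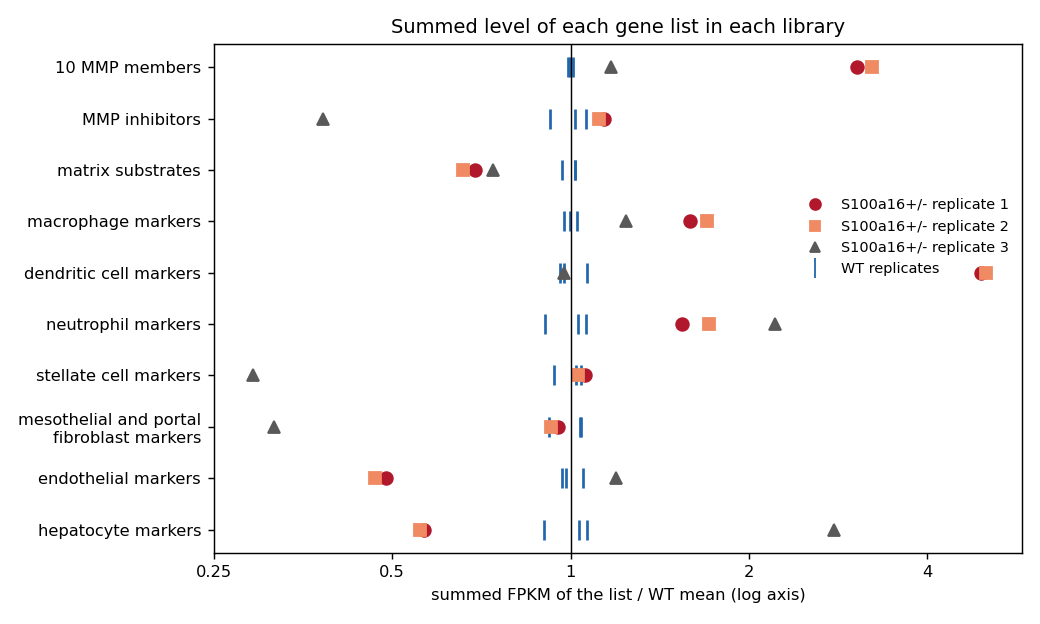
Summed FPKM of each gene list divided by its WT mean (log axis) in the S100a16+/- libraries (symbols by replicate) and the WT libraries (blue ticks). The 10 metalloproteinases stand at 3.04, 3.23 and 1.17 times the WT mean in S100a16+/- replicates 1 to 3, beside 1.59, 1.70 and 1.24 times for macrophage markers and 0.292 times for stellate markers in replicate 3.

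For the 3 members that rose, the tested protein-coding genes that varied most alike over the 6 libraries were found by Pearson correlation of log2 CPM. Genes with Gm, Rik or pseudogene-like symbols were left out. The correlation compares the pattern and not the level, and it is a description over libraries that share their genotype contrast. For Mmp9 the genes most alike were St3gal1, a sialyltransferase gene, and Rgs14, a regulator of G-protein signalling (r = 0.9989 and 0.9988). For Mmp10 they were the chemokine gene Ccl3 (r = 0.9996) and the cytokine gene Il1a (r = 0.9994). For Mmp14 they were the chemokine gene Ccl6 (r = 0.9995) and the receptor gene Cd200r1 (r = 0.9988). With 6 libraries in 2 groups, many genes reach high values of this kind.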

How the data were processed

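RNA was sequenced from 6 libraries. Per the labels' protocols, mRNA selected on oligo(dT) beads was made into dUTP-marked libraries with molecular identifiers. Per the submitters' processing notes, the tools included StringTie 1.3.4d, HISAT2 2.0.4, cutadapt 1.9, edgeR, DESeq2 and UMI-tools, with no role or order stated. The deposited table holds, per the file headers, 1 count column and 1 FPKM column per library. Its deposited counts are whole numbers. FPKM is the authors' own scaling, with 0.0001 entered where the count is 0. Genome build, strand use and collapsing of molecular identifiers are not stated in the sources available. Table coordinates of 9 of the 10 genes equal those of GENCODE M21 (GRCm38), and those of Mmp14 end earlier.

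Genes reaching an FPKM of 1 in 3 or more libraries were tested with edgeR 4.0.16 quasi-likelihood (R 4.3.3) on TMM-scaled counts, with a genotype term alone and p-values adjusted by Benjamini-Hochberg across the 12766 genes. Calls needed an adjusted p under 0.05. SEs were the absolute log2 change divided by the root of F. With a library left out, the same genes were tested. Alternatives were other scalings, filters and pseudocounts, DESeq2 1.42.0, limma 3.58.1 on log2(FPKM + 1), the replicate number as a block, and each library left out. The edgeR step was tested on simulated data.

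The members and lists were chosen with earlier results of these data known. Named genes were the members, S100a16, the 2 genes most like each called member, up to 4 called genes (or the 2 with the smallest p) of each list, each cell type's 2 markers with the highest level, and other MMP genes whose mean FPKM reached 1 in a group. Member counts were at least 226 per library, a counting error of at most 6.65%. No columns were left out. The result of 1 gene that this rule names is not reported here.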

Additional observations from a re-analysis of the deposited data

How the results depend on the processing

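The count of members called higher was 3 over all 6 libraries, 7 with DESeq2 and 0 with the replicate block, and it ran from 0 to 8 with 1 library left out, the 8 being without S100a16+/- replicate 3; the count in either direction was the same, since none was called lower in any setting. With the replicate block edgeR called 0 of all tested genes, and 6 members and 9.66% of tested genes were higher at an unadjusted p under 0.05. Same-numbered libraries had deviations from their group means correlated at -0.125, 0.0407 and -0.0313, and not every library correlated best with its own number. With 3 libraries per group, these values cannot decide whether the numbers pair the libraries. Without S100a16+/- replicates 1 and 2 and WT replicates 1 to 3 in turn, 1, 0, 0, 0 and 0 members were called higher by edgeR, of 57, 42, 31, 25 and 22 of all tested genes, and 6, 5, 5, 5 and 5 members were higher at an unadjusted p under 0.05, beside 9.61%, 9.05%, 8.89%, 8.62% and 8.64% of tested genes. Mmp9 was not called with no filter on low values (adjusted p by edgeR = 0.0650) or with limma at a pseudocount of 0.1 (adjusted p = 0.0507). Among the genes named by rule, some log2 changes turned sign with 1 library left out. Mmp2 ran from -0.61 to 0.083, Mmp23 from -0.76 to 0.067, Mmp27 from -0.015 to 0.16 and Acta2 from -0.62 to 0.27. Csf3r ran from -0.0072 to 0.21, Alb from -3.35 to 1.20 and Upk3b from -0.88 to 0.0070. In each of these cases the sign changed without S100a16+/- replicate 3. Of genes named outside that rule, Jun, Jund and Hand2 also turned without it, to -0.15, -0.026 and 0.25. Zbtb46 ran from -0.19 to 0.083 (turned without S100a16+/- replicate 2) and Krt19 from -0.030 to 0.093 (turned without S100a16+/- replicate 1). Alb, at 0.64 over all libraries, was at -2.04 with the replicate block and at -1.40, -1.53 and -1.01 with limma at pseudocounts of 1, 0.1 and 5. Krt19, at 0.041, was at -0.015 with library totals and at -0.0087, -0.012 and -0.0041 with limma at those pseudocounts. The other 8 members kept their direction in all 15 alternatives, and Mmp2 and Mmp23 in all but the fit without S100a16+/- replicate 3. Of all tested genes, 570 were called by edgeR, 1888 by DESeq2, 4115 without S100a16+/- replicate 3 and 243 with no filter. The split over all genes was 364 higher and 206 lower by edgeR, 282 and 252 with library totals, and 260 and 247 with limma at a pseudocount of 1. The cause of these differences was not tested.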
